A study of Mus musculus with 28 samples.

Results

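The small RNA reads assigned to the rodent short interspersed elements (SINEs) B1, PB1, B2, B3, B4 and ID_B1 were examined in mouse sperm. Members were all sense and antisense transposable element rows whose repeat name starts with B1, PB1, B2, B3, B4 or ID_, summed over genomic copies, which gave 23 names on 2 strands, or 46 rows, of 2220 transposable element name and strand rows in any of the 3 deposited tables. All 46 rows had entries in each table. Of the names, 10 began with B1, 5 with PB1, 3 with B2, 2 with B3 and 2 with B4, and ID_B1 was the only name of the ID_ kind. The names hold many copies, with 257959 of 1060910 transposable element copy rows in the wild-type table, 81848 of 295879 in the Nrf2-/- table and 55056 of 196651 in the liver knockout table. The tables' own SINE class is wider, and the 23 names held 59.9%, 66.1% and 60.3% of its counts in those 3 tables, the rest lying mainly in the older MIR repeats and RSINE1.

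The 28 libraries came from sperm total RNA prepared with a small RNA kit and fell into 8 groups, with no alcohol amounts, durations or ages in the labels. Wild-type mice formed a dose series of unexposed control (4 libraries), low dose (4), medium dose (2) and high dose (2) of alcohol. Mice lacking Nrf2 (Nrf2-/-) received ethanol (4) or no alcohol (4). Mice with floxed Nrf2 and the hepatocyte-active Albumin-Cre (Nrf2 liver KO, 4) were set against mice with floxed Nrf2 alone (Nrf2 flox, 4), and no alcohol is named for either. The liver KO deletion is therefore placed in liver, not in the germ cells sampled. Nothing in the labels says whether libraries of a group came from separate animals, so p-values measure the spread between libraries, which may be technical. Only groups of the same table were tested against each other, since genotype cannot be told apart from table or from any batch that goes with a table. For the same reason, values set side by side between tables are descriptions and not effects of genotype.

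SINEs are short mobile elements that encode no protein, are transcribed by RNA polymerase III and depend on the LINE-1 machinery to copy themselves. B1 and its older relatives PB1 derive from 7SL RNA, the RNA of the signal recognition particle, B2 and B3 descend from a tRNA, and B4 and ID_B1 join tRNA-like ID sequence to B1-related sequence. BC1, a neuronal RNA, is the source gene related to ID elements. In the male germ line, repeats are silenced through DNA methylation and PIWI-bound small RNAs, and small RNAs antisense to a repeat are the ones able to pair with its transcript.

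The SINE sequences themselves are not in the tables, which give a name and a copy number for each row and no coordinates. Bc1, the RNA related to ID sequence, is shown instead, from GENCODE M21, because its fragments were counted in these libraries. Capitals in Bc1 mark its match to the internal RNA polymerase III A box, searched on both strands by its core letters GCNNAGNGG, which lie at bases 16 to 24. The B box, searched on both strands as GTTCGANNC, had no exact match in it. The sequence does hold gttcggtcc, which differs only in having g where the search letters have A. The missing match therefore does not show that a B box is absent.
Bc1 (GRCm38 chr7:144914470-144914637, plus strand): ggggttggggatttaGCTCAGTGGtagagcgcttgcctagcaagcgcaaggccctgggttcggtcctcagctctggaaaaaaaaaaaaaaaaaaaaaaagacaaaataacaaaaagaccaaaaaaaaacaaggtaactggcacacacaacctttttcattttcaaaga
For scale, the A box letters occur on either strand in 25.01% of 32851 mouse RefSeq promoter windows of 300 bases, and the B box letters in 0.843%.

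SINE counts ranged from 21464 to 97159 per wild-type library, from 22443 to 75794 per Nrf2-/- library and from 24162 to 42175 per library of the liver KO and flox mice, out of 1993933 to 11119711, 3922109 to 6448390 and 2567463 to 4394714 counts of all kinds. At these depths the 95% Wilson interval on a library's SINE share was at most 0.375 percentage points wide, and that on its antisense share at most 1.34, for counting error only. WT control 1 stood apart, with 3.91% of its counts in transposable elements against 9.69% to 11.6% in the other wild-type libraries. All 15 sperm and spermatid marker genes had counts in all 28 libraries, with a sum of 289 CPM in WT control 1 and 561 to 614 in the other WT controls. Epididymal marker genes summed to 159.6 to 499.1 counts per 1000000 library counts (CPM) in the liver KO libraries and 620.5 to 781.4 in the flox libraries, without overlap, and red blood cell markers to 34.9 to 63.8 in WT low dose and 1.89 to 13.5 in WT control. Within the Nrf2-/- controls the epididymal sum was 1560.4 and 1309.9 CPM in controls 1 and 2 against 52.01 and 39.2 in controls 3 and 4. The sperm marker sum ran the other way, at 212.9 and 255 CPM in controls 1 and 2 and 886 and 1091 in controls 3 and 4, and was 266 to 351 in Nrf2-/- ethanol. The part of these markers in the SINE values was not tested, and in such bulk samples fewer cells of a type cannot be told apart from less RNA per cell. Nfe2l2, the gene of Nrf2, had 0 to 20 counts in every Nrf2-/- library and 4 to 47 in every wild-type library, too few to check the genotype labels.

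SINEs held 9.16% to 19.8% of the transposable element counts of a library, and groups of 1 table differed in that share by less than the spread between libraries. In the wild-type dose series the share of transposable element counts was 9.85% ± 0.98 in control (SD, n = 4), 9.62% ± 0.21 at low dose (SD, n = 4), 9.48% ± 0.09 at medium dose (SD, n = 2) and 9.54% ± 0.32 at high dose (SD, n = 2). The control group's spread came mostly from WT control 1, at 11.3%, where the other 3 controls lay between 9.16% and 9.56%. Nrf2-/- sperm had 16.1% ± 2.54 with ethanol and 15.5% ± 1.82 without (SD, n = 4 each), with single libraries at 14.6%, 15.6%, 14.4% and 19.8% in Nrf2-/- ethanol and 14.3%, 14.2%, 15.5% and 18.1% in Nrf2-/- control. Liver KO sperm had 12.2% ± 0.48 and flox sperm 12.3% ± 0.36 (SD, n = 4 each). The ranges overlapped in each of these comparisons. As a share of all counts, SINEs held 0.631% ± 0.067 in Nrf2-/- ethanol and 0.844% ± 0.306 in Nrf2-/- control, and 0.837% ± 0.068 in liver KO and 0.936% ± 0.081 in flox (SD, n = 4 each). Those ranges overlapped as well.

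**Figure D1:**
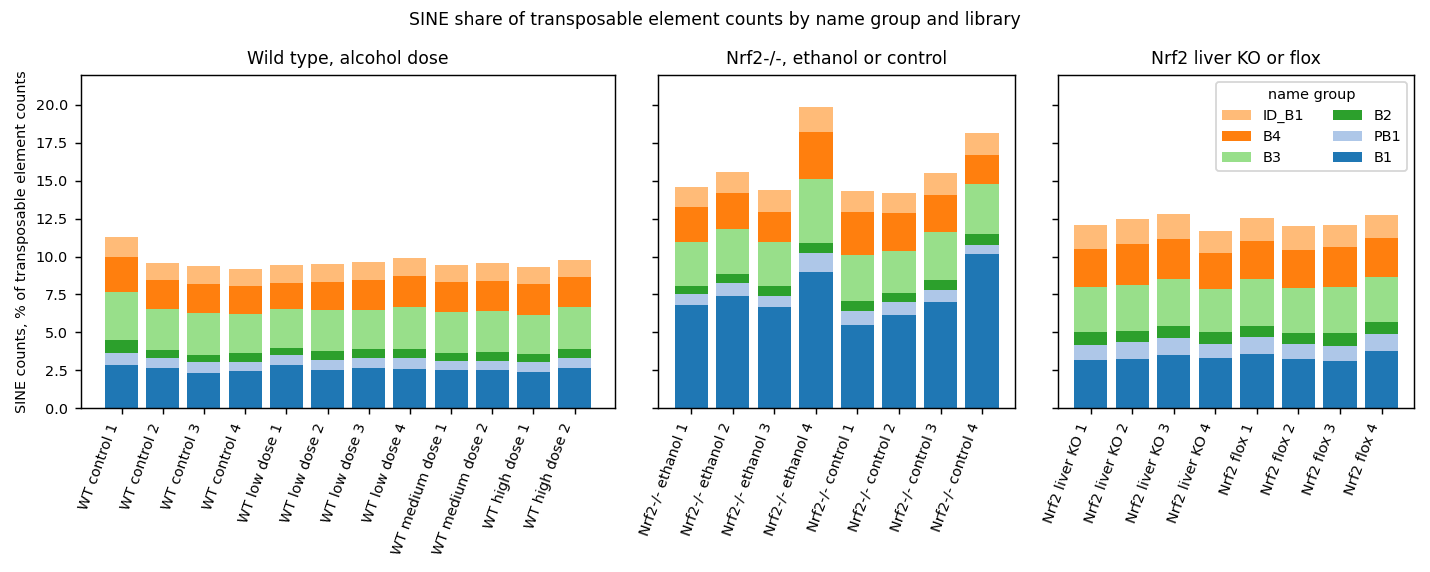
Stacked bars give SINE counts as a percent of all transposable element counts in each of 28 libraries, split by name group (B1, PB1, B2, B3, B4, ID_B1). Totals lie between 9.16% and 11.3% in wild type, 14.2% and 19.8% in Nrf2-/- and 11.7% and 12.8% in the liver KO and flox libraries, and B1 names alone hold 5.47% to 10.1% in Nrf2-/-, 2.33% to 2.86% in wild type and 3.11% to 3.79% in the liver KO and flox libraries.

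In wild type and in the liver KO table the counts were led by B3, B4A, ID_B1 and B3A. Values here are shares of summed counts, not scaled for the length or number of a name's copies, so they describe where reads fell and not which name is more active per copy. In wild type the leading sense names were B3 with 61435 counts, ID_B1 with 52683, B1_Mus1 with 49891, B4A with 46331, B3A with 42638 and B4 with 27978. The leading wild-type antisense names were B3 with 82143 counts, B4A with 68886, ID_B1 with 45266, B3A with 41011, B4 with 22664 and B1_Mur1, an older B1 subfamily, with 20868. In the liver KO and flox libraries the sense rows were again led by B4A (21738), ID_B1 (19036), B3 (13782), B4 (9715), B1_Mus1 (8447) and B3A (8125). Their leading antisense rows were B3 (27800), B4A (15817), ID_B1 (13006), B3A (12735), B2_Mm2 (7242) and B1_Mur1 (6694). B2_Mm1a and B2_Mm1t, which with B2_Mm2 are the youngest B2 names, were rare, with 2558 and 4833 counts in wild type. Across the 23 names the counts ranked similarly in the 3 tables, with Spearman's rho of 0.98 between wild type and Nrf2-/-, 0.97 between wild type and the liver KO table, and 0.96 between the last pair; the names share their annotation and copy numbers.

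In the Nrf2-/- libraries 1 name led by a wide margin. Sense B1_Mus1, a young B1 subfamily, held 98952 of their 298259 SINE counts, and B1_Mus1 as a whole held 34.2% of SINE counts there, 8.14% in wild type and 5.54% in the liver KO table. The next sense names in Nrf2-/- were B4A (18718), ID_B1 (17260), B3 (9107), B4 (7119) and B3A (7099). Their antisense rows were led by B3 (23422), B3A (19300), B4A (13148), ID_B1 (9341), B1_Mur1 (6695) and B4 (5186).

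Nearly all of that B1_Mus1 signal came from a single row, B1_Mus1_copy58276 on the sense strand. It held 95218 counts in the 8 Nrf2-/- libraries, which is 96.2% of sense B1_Mus1 and 31.9% of all SINE counts, with 3 counts on its antisense row. The copy took 30.5%, 31.1%, 30.7% and 30.5% of SINE counts in Nrf2-/- ethanol and 18.8%, 26.2%, 29.7% and 42.7% in Nrf2-/- control. The ethanol libraries lay close together and inside the range of the controls. The copy was not peculiar to Nrf2-/- sperm: it was the most counted SINE row in 12 of 12 wild-type libraries, 8 of 8 Nrf2-/- libraries and 5 of 8 liver KO and flox libraries, where sense B1F_copy22474 led the other 3. In the wild-type dose series its share of SINE counts was 1.82%, 3.94%, 2.51% and 3.90% in control, 7.87%, 2.78%, 4.89% and 3.08% at low dose, 5.65% and 4.27% at medium dose, and 2.12% and 5.66% at high dose. Both medium-dose values were above every control, while the low- and high-dose values overlapped the controls. Medium dose has 2 libraries, and 13.2% of all features did not overlap control there in CPM. In liver KO the copy took 1.57%, 0.970%, 1.45% and 1.98% of SINE counts, against 1.87%, 1.45%, 0.959% and 2.33% in flox, an almost complete overlap. In edgeR's quasi-likelihood test on single copies, its log2 fold change was 0.57 ± 0.40 (SE) for WT low dose over control, with an adjusted p of 0.866, -0.29 ± 0.57 for Nrf2-/- ethanol over control (adjusted p = 0.871) and 0.01 ± 0.28 for liver KO over flox (adjusted p = 0.995). For WT medium dose over control the copy's log2 fold change was 0.73 ± 0.48 (SE, edgeR adjusted p = 0.967), and for high dose 0.30 ± 0.49 (SE).

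**Figure D2:**
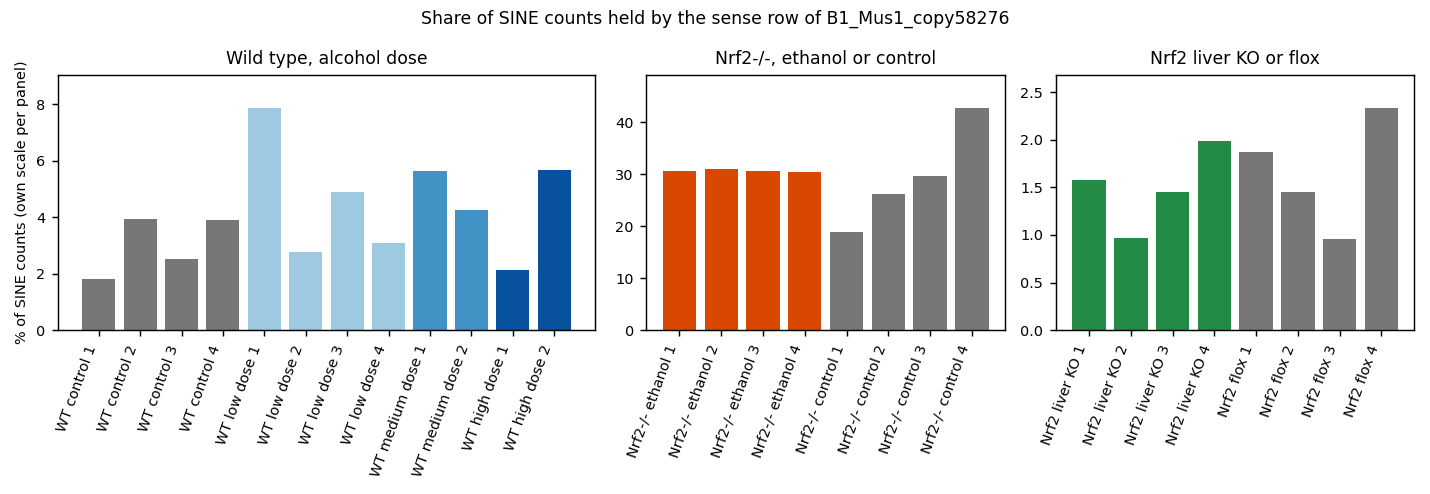
Bars give the sense counts of B1_Mus1_copy58276 as a percent of all SINE counts in each library, with a separate vertical scale per panel. The 4 Nrf2-/- ethanol libraries sit between 30.5% and 31.1%, the Nrf2-/- controls between 18.8% and 42.7%, the wild-type libraries between 1.82% and 7.87%, and the liver KO and flox libraries between 0.959% and 2.33%.

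SINE reads were concentrated in few copies. In wild type, with B1_Mus1_copy58276 included, 53 of 82608 sense copies with counts and 114 of 109081 antisense copies held 50% of the SINE counts of their strand, while 67.8% of the sense copies and 67.7% of the antisense copies had a single count over 12 libraries. In Nrf2-/- the 50% point was reached with 2 of 28544 sense copies and 104 of 32987 antisense copies, where the first sense copy is B1_Mus1_copy58276. In the liver KO and flox libraries it was reached with 154 of 24562 sense and 677 of 30494 antisense copies. Without B1_Mus1_copy58276 the 50% point of the sense counts took 72 copies in wild type, 94 in Nrf2-/- and 189 in the liver KO table. That table lists no SINE row at 0 in every library, whereas 25.7% of the wild-type and 24.8% of the Nrf2-/- rows were at 0, so the tables were not filtered alike. Among the other transposable elements, 50% of the counts lay in 49 sense and 67 antisense copies in wild type, 56 and 59 in Nrf2-/-, and 89 and 73 in the liver KO table.

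**Figure D3:**
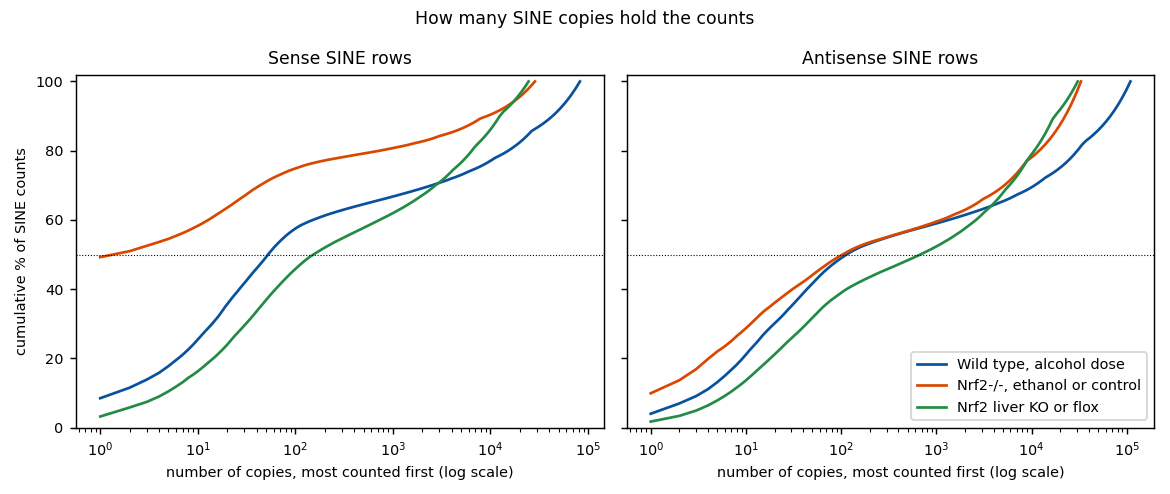
Lines give the cumulative percent of SINE counts held by the most counted copies (horizontal log scale), for sense rows at left and antisense rows at right, with 1 line per table. The Nrf2-/- sense line starts at 49.2% with its first copy, against 8.49% in wild type and 3.21% in the liver KO table.

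The leading copies recurred across the 3 tables. Of the 20 most counted SINE copy rows of each table, 12 were shared by all 3. With both strands of a copy summed, 357 of the 368 copies with at least 100 wild-type counts also had counts in both other tables. After B1_Mus1_copy58276 the shared rows included antisense B3_copy11989 (16795 wild-type counts), antisense B4A_copy79398 (12470), sense B1F_copy22474 (11952), sense B4_copy39482 (9242) and antisense B3A_copy83865 (8383). Antisense B3A_copy83865 ranked next to it in Nrf2-/-, with 10396 counts or 53.9% of antisense B3A there. Antisense B1_Mur1_copy34196 came after that, with 3963 counts or 59.2% of antisense B1_Mur1.

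Single copies gave reads almost wholly from 1 strand. Among SINE copies with at least 20 counts, 1309 of 1334 in wild type (98.1%), 405 of 420 in Nrf2-/- (96.4%) and 665 of 706 in the liver KO table (94.2%) had at least 90% of their counts on 1 strand. Both directions were well represented, with 625 sense and 684 antisense copies of this kind in wild type. The same share was 83.4%, 94.5% and 91.0% for other transposable elements. Some rows hold identical counts in all libraries of a table (3.18% to 3.73% of SINE rows with at least 20 counts), and how reads that match several copies were assigned is not stated in the labels or file headers, so a count at a copy need not come from that copy alone.

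Summed over names, SINE reads were close to evenly split between strands in wild type and in the liver KO and flox libraries, and mostly sense in Nrf2-/-. The antisense to sense ratio ran from 1.01 to 1.13 in wild type, from 0.455 to 0.691 in Nrf2-/- and from 1.00 to 1.13 in the liver KO and flox libraries. The antisense share of SINE counts was 51.96% ± 1.28 in WT control, 51.7% ± 0.95 at low dose (SD, n = 4 each), 50.5% ± 0.33 at medium dose and 51.6% ± 1.96 at high dose (SD, n = 2 each). Nrf2-/- sperm had 35.3% ± 1.69 with ethanol and 36.2% ± 3.93 without (SD, n = 4 each), and liver KO sperm 50.6% ± 0.52 against 51.1% ± 1.43 in flox (SD, n = 4 each). Of these groups only the medium-dose libraries, at 50.3% and 50.8%, did not overlap their controls, at 50.8% to 53.1%, and the nearest libraries on the 2 sides had 50.78% and 50.84%. In every one of the 28 libraries the SINE antisense share was below that of the other transposable elements, which was 54.2% to 57.9% in wild type, 43.6% to 60.4% in Nrf2-/- and 51.9% to 56.5% in the liver KO table.

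Much of the low antisense share in Nrf2-/- lay in the 1 copy named above. Without B1_Mus1_copy58276 the antisense share was 48.9% to 54.6% in the Nrf2-/- libraries, 52.9% to 55.5% in wild type and 50.96% to 53.7% in the liver KO and flox libraries. The SINE share of transposable element counts without it was 10.4% to 14.7% in Nrf2-/-, 8.76% to 11.1% in wild type and 11.5% to 12.6% in the liver KO table. By group, the antisense share without the copy averaged 50.9% ± 2.29 in Nrf2-/- ethanol and 51.5% ± 2.34 in Nrf2-/- control (SD, n = 4 each). At WT medium dose it was 53.04% and 53.3%, inside the WT control range of 52.9% to 54.5%. With the leading copies of every name left out, however, the medium-dose libraries, at 52.6% and 52.7%, again lay below the controls, at 52.8% to 54.3%, so leaving out B1_Mus1_copy58276 closes the small gap while leaving out all leading copies does not. The comparison with other transposable elements also changed without B1_Mus1_copy58276: the SINE antisense share was then below theirs in 11 of 12 wild-type, 6 of 8 Nrf2-/- and 8 of 8 liver KO and flox libraries. The exceptions were WT low dose 1, at 55.5% against 54.2% for other elements, and Nrf2-/- controls 1 and 2, at 50.4% against 47.2% and 49.1% against 43.6%.

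The names differed widely in their strand. In wild type the antisense share was highest in B1_Mm (83.4%), B1_Mur1 (79.3%) and PB1D11 (79.1%), and lowest in B1_Mus1 (24.6%), B1F2 (25.7%) and B2_Mm2 (34.8%). The young subfamilies B1_Mm and B1_Mus1 thus stood at opposite ends, with 54.9% of antisense B1_Mm and 67.0% of sense B1_Mus1 counts in 1 copy each. Without the most counted copy on each strand, wild-type B1_Mm was 73.3% antisense, B1_Mus1 46.2% and PB1D11 64.1%. In Nrf2-/- it was highest in B1_Mur1 (78.1%), B3A (73.1%) and B3 (72.0%), and lowest in B1_Mus1 (2.89%), B1F2 (23.7%) and PB1 (27.6%). In the liver KO table the highest were B1_Mur1 (76.6%), B1_Mm (72.0%) and B1_Mus2 (69.6%), and the lowest PB1 (29.2%), B1F (34.8%) and B4 (38.7%). Leaving out the most counted copy on each strand of each name moved several of these values, with B1_Mus1 at 46.2%, 41.9% and 53.5% in the wild-type, Nrf2-/- and liver KO tables, B1F at 64.4%, 46.7% and 49.1%, and B3A in Nrf2-/- at 58.3%. B1_Mur1 stayed antisense on most of its counts without those copies, at 76.0%, 64.7% and 74.8%, as did B1_Mus2 at 75.9%, 64.7% and 69.8%. B4A was 59.8% antisense in wild type but 41.3% and 42.1% in the Nrf2-/- and liver KO tables. Over the 23 names, the antisense shares correlated between tables with Spearman's rho of 0.78 (wild type and Nrf2-/-), 0.74 (wild type and liver KO) and 0.86 (Nrf2-/- and liver KO), and with 0.70, 0.51 and 0.84 without the leading copies.

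**Figure D4:**
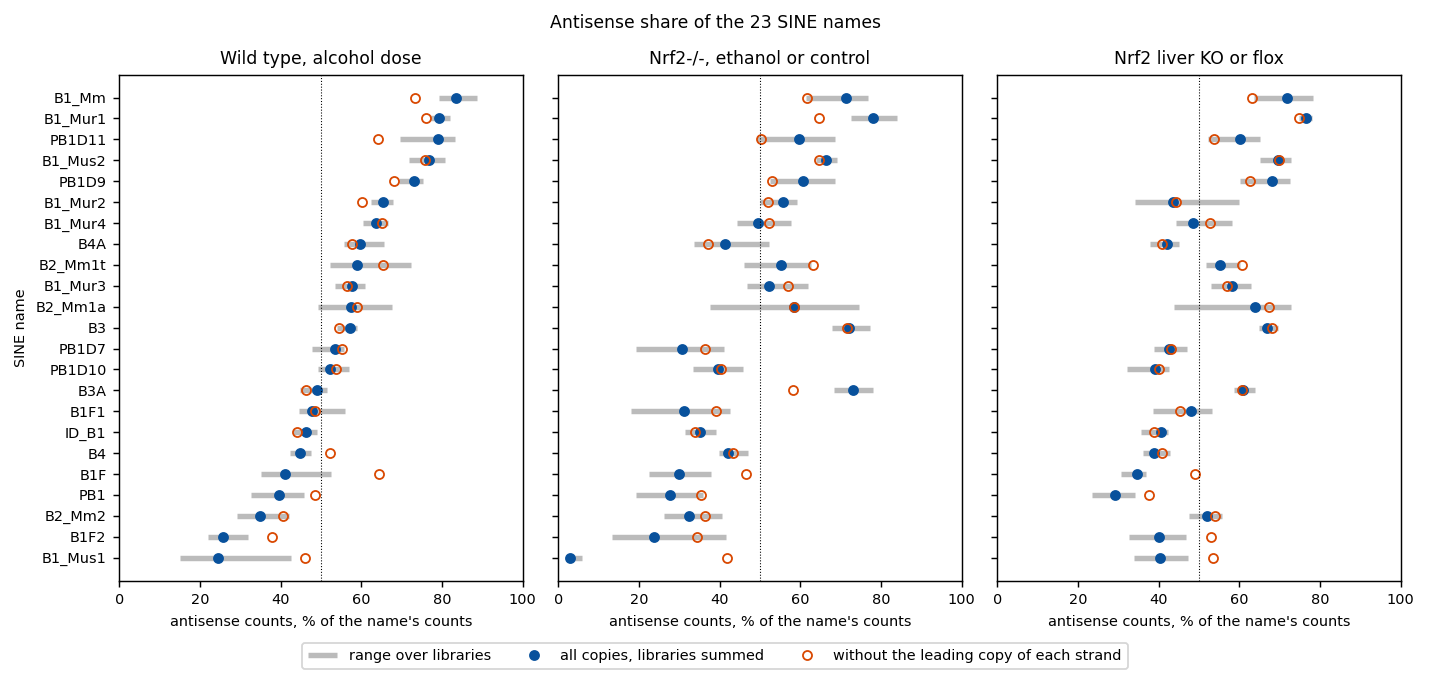
Filled points give the antisense percent of each of the 23 SINE names with the libraries of a table summed, grey bars the range over libraries, and open points the value without the most counted copy on each strand. B1_Mur1 lies between 76.6% and 79.3% in all 3 tables, while B1_Mus1 lies at 24.6%, 2.89% and 40.4% and at 46.2%, 41.9% and 53.5% without its leading copies.

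Within the name groups few values separated a treated group from its control. B4 names held 21.03% and 20.7% of SINE counts at WT medium dose and 21.9% and 20.7% at high dose, against 20.1% to 20.6% in WT control, without overlap. Low dose overlapped control, at 18.8% to 20.97%, and as a share of all transposable element counts the B4 names at medium dose (1.97% to 1.98%) and high dose (2.02% to 2.04%) lay inside the control range of 1.86% to 2.32%. B1 names were 44.2% and 47.0% antisense at medium dose against 49.1% to 57.6% in control, and B3 names 54.8% and 55.1% against 52.5% to 53.7%. These medium- and high-dose groups have 2 libraries each. For scale, 13.2% of all features did not overlap control in CPM at medium dose, 7.59% at high dose and 1.71% for the pooled doses. In the other comparisons every name group's share and antisense share overlapped its control. In Nrf2-/- the B1 names held 45.2% to 47.6% of SINE counts with ethanol and 38.1% to 55.9% without.

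No SINE row passed the test in any comparison. In WT low dose against WT control, edgeR's quasi-likelihood test with Benjamini-Hochberg adjustment over 17937 features called 0 of 46 SINE rows at an adjusted p of 0.05, with a background of 0.0613% called (11 features). Of the 46 rows, 0 had an unadjusted p under 0.05 in edgeR, against 7.46% of all features. DESeq2 called 0 of the 46 rows and 0.245% of all features. The values of the 2 groups overlapped in all 46 rows, while 5.24% of all features did not overlap. The SINE rows had a median log2 fold change of -0.03, with 17 higher and 29 lower, and the median of all features tested was 0.00. With library sizes from all counts the SINE median was 0.09, with 39 rows higher, and that of all features 0.18. Sense B1_Mus1 was at 1078, 645, 716 and 541 CPM at low dose, against 418, 760, 447 and 711 in control. The ranges overlapped, and its log2 fold change was 0.35 ± 0.29 (SE, edgeR adjusted p = 0.903). Antisense B2_Mm1a, from a young B2 subfamily, had the lowest unadjusted p, with 17.7, 20.6, 18.3 and 14.8 CPM at low dose, against 40.5, 27.0, 13.5 and 21.2 in control, a log2 fold change of -0.53 ± 0.27 (SE, edgeR adjusted p = 0.707). Its controls spanned the whole low-dose range, with WT control 1 the highest. The next lowest p-values belonged to sense B1_Mm (-0.35 ± 0.25), sense B1_Mus2 (-0.24 ± 0.24) and antisense B1_Mus1 (-0.22 ± 0.22), as log2 fold changes ± SE.

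The higher doses gave no SINE call either. For medium and high dose pooled against WT control edgeR called 0 of 46 SINE rows and 0% of all features, and the same held for medium dose alone (0%) and for high dose alone (0%). Again 0 SINE rows had an unadjusted p under 0.05 in edgeR in any of these 3 comparisons, against 3.03%, 4.74% and 2.91% of all features for pooled, medium and high dose. DESeq2 called 0 SINE rows, with 0.00558% of all features called for the pooled doses and 0% for each dose alone. All 46 rows overlapped control for the pooled doses and for high dose, where 1.71% and 7.59% of all features did not. The median SINE log2 fold change was -0.08 for the pooled doses, 0.01 at medium dose and -0.18 at high dose, where 43 of 46 rows were lower, against medians over all features of 0.00, 0.00 and 0.05. The signs and sizes of these SINE medians depend on the scaling and on single libraries. With library sizes from all counts the SINE median at high dose was 0.08, with 36 rows higher, and the median of all features 0.40. At high dose the SINE median thus lay below that of all features under both of these scalings. Without WT high dose 1 the SINE median at high dose was -0.01. That library had the highest epididymal marker sum in wild type, 1834.5 CPM against 294.8 in WT high dose 2. The part of these markers in the result was not tested. Antisense B2_Mm1a was at 16.0 and 23.9 CPM at medium dose and 14.1 and 17.9 at high dose, against the control values above. Its log2 fold change was -0.37 ± 0.34 at medium dose and -0.70 ± 0.34 at high dose (SE, edgeR adjusted p = 0.951 and 0.999). Other rows with low unadjusted p at high dose were sense B1_Mur3 (-0.40 ± 0.25), sense B1_Mus2 (-0.48 ± 0.30), antisense B1_Mus1 (-0.40 ± 0.27) and sense PB1 (-0.35 ± 0.26). At medium dose they were sense B2_Mm1a (-0.45 ± 0.30), sense B1F (0.38 ± 0.28) and sense B1_Mus1 (0.45 ± 0.35). Sense B1_Mus1 was the 1 SINE row whose medium-dose values, 799 and 792 CPM, did not overlap control, in a comparison where 13.2% of all features did not overlap. Without B1_Mus1_copy58276 its log2 fold change was -0.10 at medium dose and -0.03 at low dose.

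In Nrf2-/- ethanol against Nrf2-/- control, edgeR called 0 of 46 SINE rows and 0% of 9658 features. Its unadjusted p was under 0.05 for 0 SINE rows and 4.83% of all features. DESeq2 called 0 SINE rows and 0.135% of all features. All 46 rows overlapped between the 2 groups, while 5.42% of all features did not. The median SINE log2 fold change was -0.17, with 8 rows higher and 38 lower, against -0.27 for all features tested and -0.08 for the other transposable elements tested. With library sizes from all counts the SINE median was -0.38 and that of all features -0.53. The SEs had a median of 0.49, compared with medians of 0.21 for WT low dose and 0.22 for liver KO. Antisense B2_Mm1a was at 9.34, 12.4, 13.3 and 11.2 CPM with ethanol, against 8.82, 7.13, 18.8 and 37.3 without, a log2 fold change of -0.63 ± 0.55 (SE, edgeR adjusted p = 0.769). The controls fell on both sides of the ethanol libraries. Sense B1_Mus1 showed the same layout, with 3729, 3876, 5130 and 3088 CPM with ethanol and 1451, 1925, 5721 and 11313 without. The controls with the lower values, 1 and 2, are those with the lower sperm and higher epididymal marker sums, and the part of these markers in the result was not tested. Antisense B1_Mur1 (-0.60 ± 0.56), antisense B1_Mus1 (-0.49 ± 0.50), antisense PB1D9 (-0.43 ± 0.50) and antisense B1F1 (0.34 ± 0.41) followed by p, as log2 fold changes ± SE. Without Nrf2-/- control 4 the SINE median was 0.12 with 38 of 46 rows higher, so the direction rests on that library.

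In Nrf2 liver KO against Nrf2 flox, edgeR called 0 of 46 SINE rows, with a background of 0.0508% of 9836 features (5 features). Of the 46 rows, 0 had an unadjusted p under 0.05 in edgeR, against 12.4% of all features. DESeq2 called 0 of the 46 rows, against 0.63% of all features, with 1 SINE row at an unadjusted p under 0.05. The SINE median log2 fold change was 0.16, with 39 rows higher, against 0.01 for all features and 0.21 for the other transposable elements tested. With library sizes from all counts the SINE median was -0.15, with 4 of 46 rows higher, and the median of all features -0.28. The sign of the SINE median thus depends on the scaling, while it lay above the median of all features under both of these scalings. Antisense PB1D11, a monomer related to 7SL, was at 63.0, 75.5, 68.2 and 66.5 CPM in liver KO, against 38.0, 57.3, 50.2 and 53.1 in flox, and its groups did not overlap. Its log2 fold change was 0.46 ± 0.23 (SE, edgeR adjusted p = 0.422). Sense PB1D10 was the other SINE row without overlap, at 231, 256, 224 and 251 in liver KO against 209, 212, 186 and 208 in flox, a log2 fold change of 0.24 ± 0.21 (SE, edgeR adjusted p = 0.658). These 2 of 46 rows stand beside 6.72% of all features whose groups did not overlap. Sense B2_Mm1a (0.61 ± 0.33), sense PB1D9 (0.38 ± 0.23), sense B1_Mur3 (0.36 ± 0.23) and antisense PB1D9 (0.26 ± 0.22) had the next lowest p-values. Epididymal marker genes differed between these groups as given above, and their part in these values was not tested.

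**Figure D5:**
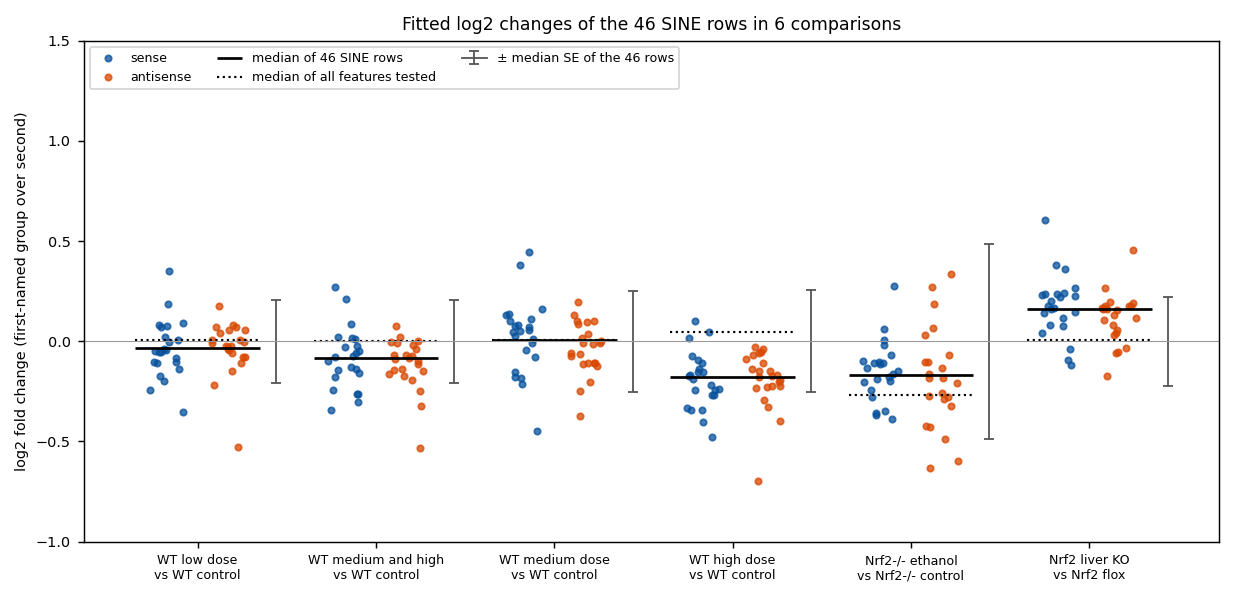
Each point is the edgeR log2 fold change of 1 of the 46 SINE rows, first-named group over second, with sense and antisense rows in different colours, solid lines for the SINE median, dotted lines for the median of all features tested and a bar of ± the median SE. In all 6 comparisons the points lie between -0.70 and 0.61 and the SINE medians between -0.18 and 0.16.

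Testing single copies gave the same outcome. With transposable elements kept per copy, 474 SINE copies were tested in wild type, 188 in Nrf2-/- and 252 in the liver KO table, and edgeR called 0 of them in each of the 6 comparisons, with backgrounds of 0%, 0%, 0%, 0.00511%, 0% and 0.0379% in the order low, medium and high pooled, medium, high, Nrf2-/- ethanol and liver KO. Unadjusted p-values under 0.05 belonged to 19, 30, 24 and 23 of the 474 wild-type copies, in that order. They belonged to 4 of the 188 Nrf2-/- copies and 19 of the 252 in the liver KO table. The share of all features with such p-values in these per-copy fits is not given here, so the counts have no background beside them. In the separate fits with copies summed by name, it was 7.46%, 3.03%, 4.74%, 2.91%, 4.83% and 12.4%, in the same order of comparisons.

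Of the RNAs related to SINEs by origin, 7SL RNA fragments were at 3270 ± 451 CPM in Nrf2-/- ethanol and 7074 ± 6083 in Nrf2-/- control (SD, n = 4 each), a log2 fold change of -1.11 ± 0.61 (SE, edgeR adjusted p = 0.767). They were at 5124 ± 1084 in liver KO and 3602 ± 851 in flox (SD, n = 4 each). 4.5S RNA, a small rodent RNA, was at 3942 ± 879 in Nrf2-/- ethanol and 2136 ± 539 in Nrf2-/- control (SD, n = 4 each), a log2 fold change of 0.88 ± 0.44 (SE, edgeR adjusted p = 0.767). Its ranges, 2686 to 4735 with ethanol and 1385 to 2556 in control, did not overlap, in a comparison where 5.42% of all features did not overlap. BC1 fragments were at 333 ± 165 CPM in Nrf2-/- ethanol against 187 ± 28.5 in Nrf2-/- control (SD, n = 4 each), with overlapping ranges of 92.8 to 464 and 157 to 225. They were at 131 ± 19.2 at WT low dose against 108 ± 24.98 in WT control, and 189 ± 11.9 in liver KO against 166 ± 25.6 in flox (SD, n = 4 each). Of 60 tested rows of this list, which is mostly tRNAs, edgeR called 0 in each of the 6 comparisons.

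The genes that make, move or silence SINEs were sparsely covered, as fragments of long RNAs in small RNA libraries, and none passed the test. Of 20 RNA polymerase III genes, 10 were tested in wild type, 6 in Nrf2-/- and 4 in the liver KO table, and edgeR called 0. Polr3e, a polymerase subunit, was at 0.754 ± 0.308 CPM at WT medium dose (n = 2) and 2.04 ± 0.417 in control (n = 4), a log2 fold change of -1.38 ± 0.54 (SE, edgeR adjusted p = 0.943). Gtf3c1, the largest TFIIIC subunit, which binds the B box, was at 6.46 ± 0.973 in liver KO and 11.1 ± 1.63 in flox (SD, n = 4 each, edgeR adjusted p = 0.348). Of 21 piRNA pathway genes 15, 5 and 8 were tested and 0 called, and of 17 genes that repress or edit SINEs 12, 9 and 9 were tested and 0 called. In that last list Dnmt1, the maintenance DNA methyltransferase, was at 4.07 ± 1.70 in Nrf2-/- ethanol and 9.02 ± 2.06 in Nrf2-/- control (SD, n = 4 each, edgeR adjusted p = 0.767). LINE-1 rows, whose proteins SINEs use to move, had 163 tested in wild type, 129 in Nrf2-/- and 131 in the liver KO table, with 0 called in each of the 6 comparisons. Their median log2 fold change was 0.06 for WT low dose, 0.12 for Nrf2-/- ethanol and 0.17 for liver KO.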

How the data were processed

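Sperm small RNA libraries were made from Trizol total RNA with a Qiaseq small RNA kit, per the labels' protocols. The authors deposited 3 tables of raw read counts per feature and library, with transposable elements listed per genomic copy and strand. The aligner, counter, genome build and handling of reads with several matches are not given in the sources used here. The label of WT medium dose 1 was followed although its column name begins like those of the high dose.

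Copies were summed per name and strand. All features except miRNAs were tested with edgeR 4.0.16 (TMM scaling, filterByExpr, quasi-likelihood F test, Benjamini-Hochberg adjustment over all features, threshold 0.05) in R 4.3.3, with the 12 wild-type libraries in 1 fit, and the script was tested on simulated data. Counts per 1000000 library counts (CPM) use TMM-scaled sums of the features tested, except for marker sums, which use all counts. In Nrf2-/- ethanol 1, for example, the tested features held 2105096 of 4777585 counts. Marker sums and other CPM values are therefore not on the same scale. Fold changes are per name, without length scaling. Summed shares are given without tests. Named rows were the 6 most counted names per table and strand, the 5 lowest p per comparison where fewer than 5 passed, the 3 highest and 3 lowest antisense shares among names with at least 100 counts, and up to 4 genes per context list, with rows without overlap added after their values were seen. Alternatives were DESeq2 1.42.0, other scalings and filters, fewer libraries, a replicate block and single copies. Members and lists were chosen with earlier results of these data known.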

Additional observations from a re-analysis of the deposited data

Results flagged for a closer look

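In all, 4 values stood apart from the other libraries of their group by Dixon's criterion, out of 90 sets of 4 libraries examined, where chance flags about 1 in 20. In WT low dose 2 the antisense share of SINE counts was 53.2%, against 51.1% to 51.4% in the other low-dose libraries. In Nrf2-/- ethanol 4 the B3 names were 77.6% antisense, against 69.5% to 70.6% in the other ethanol libraries, and that library also had the highest SINE share of its group. In Nrf2 liver KO 2 the B4 names were 38.6% antisense, against 41.1% to 41.6%, and the PB1 names 45.1% antisense, against 48.6% to 49.2%, in the other liver KO libraries.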

How the results depend on the processing

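Under the alternatives tried, 0 of 46 SINE rows were called in each of the 6 comparisons, with DESeq2, library sizes from all counts, transposable element rows alone, no low-count filter, a threshold of 0.1, the leading copies left out, and each library left out in turn (0 to 0). The lowest adjusted p of a SINE row over the alternatives ranged from 0.382 to 0.999 for WT low dose, from 0.558 to 1.00 for Nrf2-/- ethanol and from 0.211 to 0.731 for liver KO when copies were summed by name, and with single copies tested it was 0.172, 0.823 and 0.201 in these comparisons. With the replicate number as a block, 0 SINE rows were called in each comparison, while calls over all features were 42 for WT low dose and 25 for liver KO. Same-numbered libraries did not deviate together in every pair (correlations from -0.49 to 0.42), so the number was not taken as a pairing. Over all features, the 11 calls for WT low dose became 44 with DESeq2 and 155 without a filter, the 0 calls for Nrf2-/- ethanol 13 and 1, and the 5 calls for liver KO 62 and 75. Library sizes from all counts moved the median of all features to 0.18 for WT low dose, 0.40 for high dose, -0.53 for Nrf2-/- ethanol and -0.28 for liver KO. Of the named rows, sense B1_Mus1 turned to a log2 fold change of -0.033 for WT low dose and -0.10 for medium dose without the leading copies, and to -0.030 and -0.10 without B1_Mus1_copy58276 alone. Antisense B2_Mm1a ranged from -0.84 to 0.029 for Nrf2-/- ethanol when single libraries were left out, and turned positive without Nrf2-/- control 4 only, and antisense PB1D9 turned to -0.040 for liver KO with library sizes from all counts. The causes were not tested beyond what leaving out those copies shows.

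The SINE share of transposable element counts depends on what is counted. Without the most abundant name on each strand it was 8.25%, 8.06%, 7.91% and 8.01% in WT control, low, medium and high dose, 10.3% in Nrf2-/- ethanol, 10.04% in Nrf2-/- control, 10.1% in liver KO and 10.2% in flox. In the same order of groups it was 3.19%, 3.21%, 3.06%, 3.07%, 8.09%, 7.85%, 4.08% and 4.22% for names starting with B1 or B2. Without the leading copies it was 7.91%, 7.56%, 7.41%, 7.64%, 9.59%, 8.90%, 10.5% and 10.6%, and as a share of all counts 0.918%, 0.988%, 0.962%, 0.976%, 0.631%, 0.844%, 0.837% and 0.936%. Without B1_Mus1_copy58276 it was 9.59%, 9.22%, 9.05% and 9.20% over the wild-type series, 11.8% in Nrf2-/- ethanol, 11.4% in Nrf2-/- control, 12.1% in liver KO and 12.2% in flox. The antisense share without that copy was 53.6%, 54.3%, 53.2% and 53.7% over the wild-type series, 50.9% in Nrf2-/- ethanol, 51.5% in Nrf2-/- control, 51.3% in liver KO and 51.9% in flox. Without the leading copies it was 53.4%, 53.7%, 52.7% and 53.4% over the wild-type series, 48.6% in Nrf2-/- ethanol, 48.7% in Nrf2-/- control, 51.7% in liver KO and 52.7% in flox. For names starting with B1 or B2 it was 49.8%, 46.9%, 44.8% and 47.7% over the wild-type series, 18.1% in Nrf2-/- ethanol, 20.6% in Nrf2-/- control, 50.8% in liver KO and 51.7% in flox. As the mean over names it was 55.6%, 55.5%, 54.6% and 55.6% over that series, 47.0% in Nrf2-/- ethanol, 47.5% in Nrf2-/- control, 51.4% in liver KO and 52.4% in flox. Without the most abundant name on each strand it was 50.8%, 50.6%, 48.9997% and 50.6% over that series, 45.8% in Nrf2-/- ethanol, 46.1% in Nrf2-/- control, 49.3% in liver KO and 49.8% in flox. The medium-dose libraries lay below every WT control in the last of these settings (48.7% to 49.3% against 49.6% to 52.2%), for B1 and B2 names (43.7% to 45.9% against 46.4% to 55.1%) and without the leading copies, and overlapped the controls without B1_Mus1_copy58276 and as the mean over names. Leaving out single libraries moved the SINE share to between 9.37% and 10.1% in WT control and to between 14.9% and 16.7% in Nrf2-/- ethanol.

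The medium- and high-dose groups have 2 libraries each and the median SE in Nrf2-/- was 0.49 on the log2 scale. Changes of about 2 SEs were not called, and no detectable size was estimated. Counts at single copies and the split between sense and antisense rest on the authors' assignment of reads that match several copies. Differences between the 3 tables cannot be told apart from filtering or from any batch that goes with a table. The lowest-depth library, WT control 3, had 1993933 counts, and leaving out WT control 1 and WT control 3 together, an alternative chosen after seeing the data, as were those on leading copies and single copies, also gave 0 called SINE rows.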
